A study of Mus musculus with 20 samples.

Results

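The genes that make, sense and answer glucocorticoids were followed in epididymal white adipose tissue (eWAT) of mice on normal chow, on a high-fat diet (HFD) and on HFD with SZ-A. The 9 members were listed by name and looked up in the deposited gene table by Ensembl identifier. All 9 of the 9 listed genes were present, among 14776 genes in the table, and each passed the filter on low values in every comparison. They are Hsd11b1, the enzyme that regenerates active glucocorticoid, the receptors Nr3c1 and Nr3c2, the receptor co-chaperone Fkbp5, the target genes Tsc22d3, Sgk1 and Zbtb16, and the metallothioneins Mt1 and Mt2.

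The mice were male C57BL/6J, 6 weeks old at the start. One group received normal chow (NC, 6 mice), and the others an HFD for 14 weeks followed by 6 more weeks of HFD with either saline (HFD, 7 mice) or SZ-A, alkaloids from mulberry twigs, by gavage at 400 mg/kg per day (SZ-A, 7 mice). All groups had thus been fed for 20 weeks. Whether the NC mice also received saline is not given in the sources used here. The mice were fasted overnight before the tissue was taken.

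In adipose tissue, 11β-hydroxysteroid dehydrogenase type 1, the product of Hsd11b1, reduces inert 11-dehydrocorticosterone to corticosterone inside the cell, with NADPH supplied by hexose-6-phosphate dehydrogenase (H6pd). Corticosterone binds the glucocorticoid receptor (Nr3c1) and the mineralocorticoid receptor (Nr3c2), which are held in a chaperone complex with FKBP51, the product of Fkbp5, and then act on target genes. Fkbp5 is itself such a target and its product lowers the receptor's affinity for the hormone, so it is known as a short feedback loop. Tsc22d3, Sgk1 and Zbtb16 are widely used readouts of the receptor, and Mt1 and Mt2 respond both to glucocorticoids and to zinc.

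Values are FPKM, fragments scaled to exon length and library size, so levels may be set side by side between genes as far as the annotated exon lengths hold. Over all 20 mice, the median level ran from Mt1 (232 FPKM) through Tsc22d3 (67.3), Sgk1 (32.8), Mt2 (22.6), Hsd11b1 (21.4), Nr3c1 (20.5), Fkbp5 (16.0) and Zbtb16 (8.0) to Nr3c2 (1.70). The reads on the table's genes, recovered from FPKM and exon length, came to between 13567667 and 19388628 per mouse. The fewest reads behind any member value were 38, for Zbtb16 in NC mouse 6, followed by 45 for Nr3c2 and 51 for Mt2, both in SZ-A mouse 5. Counting error was therefore small beside the spread between mice.

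Of the 20 libraries, 3 stood apart from their groups and carry extreme member values. NC mouse 6 had a median correlation of 0.765 with the other NC mice and held Adipoq, which encodes the adipocyte hormone adiponectin, at 26.6 FPKM against 859 to 2278 in the other NC mice. It also held Krt18, an epithelial keratin, at 452 FPKM and Adgrg2, a receptor of the epididymal epithelium, at 420 FPKM. SZ-A mouse 5 had the largest share of mitochondrial reads, 11.6%, and a median correlation of 0.895 with its group. NC mouse 1 had a median correlation of 0.881 with the other NC mice and the largest mitochondrial share of that group, 8.34%. Krt18 also exceeded 100 FPKM in NC mice 1 and 2 (454 and 150.1 FPKM) and in SZ-A mice 2 and 7 (119 and 168), while no HFD mouse exceeded 3.23.

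**Figure D1:**
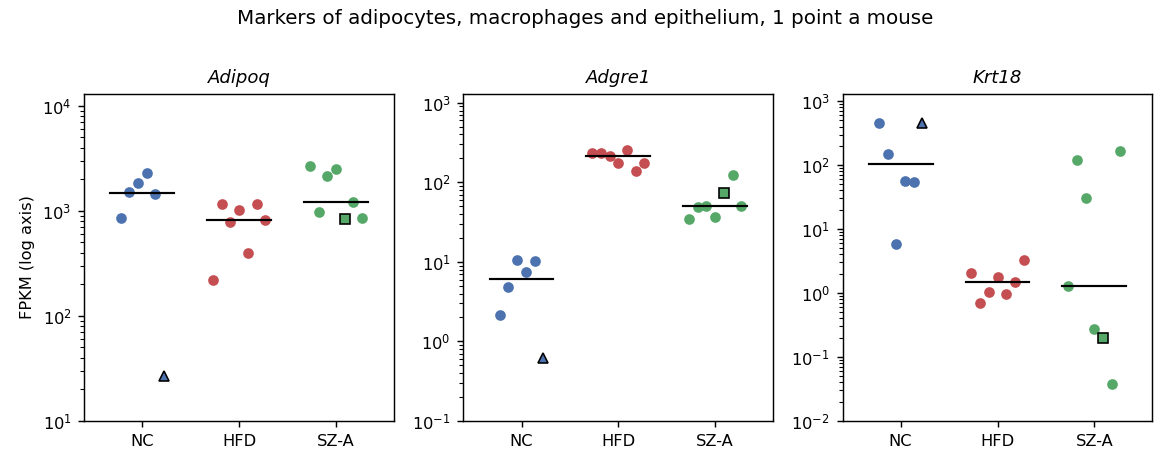
FPKM on a log axis of Adipoq, Adgre1 and Krt18 in each mouse, with 1 point a mouse, a line at the group median, a triangle for NC mouse 6 and a square for SZ-A mouse 5. NC mouse 6 lies lowest in Adipoq (26.6) and Adgre1 (0.615), Adgre1 is 140 to 258 in every HFD mouse, and Krt18 exceeds 100 FPKM in 3 NC and 2 SZ-A mice.

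Marker levels of several cell types also differed between groups. Counts are at an adjusted p under 0.05 by limma unless stated. With all mice, it called 21% of all genes higher and 20.1% lower in HFD than in NC. Between SZ-A and HFD, the shares of all genes were 9.47% higher and 13.3% lower. Of 16 macrophage markers, 15 were higher in HFD than in NC, and 14 fell with SZ-A. Their summed level was 90.7 to 882 FPKM in NC mice, 3746 to 9769 in HFD mice and 1489 to 5019 under SZ-A. The medians were 548, 5024 and 1775. The lowest NC sum was that of NC mouse 6, the other NC mice starting at 320, and the highest SZ-A sum was that of SZ-A mouse 5. Of 15 adipocyte markers, 1 was higher and 1 lower in HFD than in NC, and without NC mouse 6 these counts were 2 and 9. In SZ-A, 1 of the 15 was higher and 0 lower than in HFD, with 10 at an unadjusted p under 0.05 and a median log2 fold change of 0.81. Without SZ-A mouse 5, 3 were higher with a median of 0.93, and without the mice above 100 FPKM of Krt18, 9 were higher with a median of 1.06. The adipocyte sum was 323 to 13361 FPKM in NC mice, 4852 to 8676 in HFD mice and 5843 to 14497 under SZ-A. The lowest NC sum was again that of NC mouse 6, and the other NC mice started at 5349. In bulk tissue, fewer cells of a type and less RNA per cell cannot be told apart, and the part of cell makeup in the member values was not tested.

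Of the 4 keratin and mesothelial markers in the table, out of 11 listed, 3 were lower in HFD than in NC. The smooth muscle markers gave 5 of 7 lower in HFD, the progenitor and fibroblast markers 9 of 12 higher and 1 lower, and the endothelial and the T and B cell markers 0 of 10 and 0 of 8 in either direction. At an unadjusted p under 0.05, 1 endothelial and 2 T and B cell markers would have counted. Without NC mouse 6, 2 of 10 endothelial markers were lower in HFD, and 4 without the mice above 100 FPKM of Krt18. Against HFD, the SZ-A group had 10 of 12 progenitor and fibroblast markers lower, 3 of 10 endothelial and 2 of 7 smooth muscle markers higher, 1 of 8 T and B cell markers lower (2 without SZ-A mouse 5) and 0 of 4 keratin and mesothelial markers in either direction. Of 20 epididymis and vas deferens markers listed, Adgrg2 alone was in the table, and it was lower in HFD than in NC and rose with SZ-A. Every gene in the table was above 0 FPKM in all 20 mice, so an absent marker may still have been expressed in some of them.

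Promoter sequences are shown for Sgk1, for its glucocorticoid response element, and for Mt1 and Mt2, for their metal response cores. They are from RefSeq on GRCm38.p6, 250 bases before to 50 after a transcription start, and 7 of the 9 members had entries that were used. In the window of Sgk1 on chr10:21993640-21993939 (plus strand), the fifth of 6 Sgk1 starts, capitals mark every match to the hexamer AGAACA, to which 1 receptor subunit binds, or to the core ACANNNTGT on either strand, which overlap:
Sgk1: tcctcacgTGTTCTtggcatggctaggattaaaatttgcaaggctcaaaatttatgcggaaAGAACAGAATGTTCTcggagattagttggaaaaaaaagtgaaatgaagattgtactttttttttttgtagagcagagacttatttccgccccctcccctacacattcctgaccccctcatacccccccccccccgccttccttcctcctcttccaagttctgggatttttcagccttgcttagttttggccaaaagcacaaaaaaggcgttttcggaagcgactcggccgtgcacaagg
The longer run of capitals holds 2 hexamers facing each other 3 bases apart, the full palindrome to which receptor dimers bind, starting 189 bases before the start site. Of 32851 promoter windows, 3 (0.00913%) held such a facing pair, whereas 18.97% held at least 1 hexamer and 6.85% the core. The other Sgk1 windows and those of Hsd11b1, Nr3c2, Fkbp5 and Tsc22d3 held no facing pair.

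The metallothionein windows lie on the plus strand at chr8:94178839-94179138 for Mt1 and chr8:94172368-94172667 for Mt2. Here capitals mark the metal response cores TGCACNC and TGCGCNC on either strand and, in Mt1 alone, 1 core ACANNNTGT:
Mt1: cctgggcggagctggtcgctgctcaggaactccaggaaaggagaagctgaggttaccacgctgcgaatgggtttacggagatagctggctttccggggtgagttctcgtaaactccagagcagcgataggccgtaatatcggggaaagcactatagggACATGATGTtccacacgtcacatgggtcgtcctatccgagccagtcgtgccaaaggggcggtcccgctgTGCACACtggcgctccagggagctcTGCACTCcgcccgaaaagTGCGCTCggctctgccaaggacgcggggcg
Mt2: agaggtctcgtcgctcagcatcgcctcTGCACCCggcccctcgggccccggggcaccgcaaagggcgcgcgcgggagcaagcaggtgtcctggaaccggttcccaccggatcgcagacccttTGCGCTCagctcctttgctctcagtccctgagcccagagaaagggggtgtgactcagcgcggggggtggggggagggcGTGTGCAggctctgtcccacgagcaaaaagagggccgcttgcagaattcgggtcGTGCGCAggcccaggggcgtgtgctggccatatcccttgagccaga
Mt1 held 3 metal response cores and Mt2 held 4. One or more of these cores occurred in 25.7% of all windows. A match is a run of letters in these windows and was not tested for binding.

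Comparison of HFD with NC asks how diet-induced obesity altered these genes. Fkbp5 and Nr3c2 were lower in HFD, Fkbp5 by 1.82 and Nr3c2 by 0.43 on log2(FPKM + 1), the log2 scale of all fits, and no member was higher. Thus 2 of 9 members passed the limma test at an adjusted p under 0.05, against 41.1% of all genes tested (21% higher and 20.1% lower), so the members' share was below that of all genes. In none of the 9 members were the NC and HFD values without overlap, as they were for 20.5% of all genes. Fkbp5 alone also passed the study's limit of a log2 fold change above 1.5, which 7.97% of all genes passed. The median log2 fold change over the 9 members was -0.29, beside -0.04 over all 14706 genes tested. It was -0.041 without NC mouse 1, -0.32 without NC mouse 6 and -0.48 without the mice above 100 FPKM of Krt18.

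Comparison of SZ-A with HFD asks what the treatment altered in obese tissue. Hsd11b1 was 1.92-fold higher in SZ-A, a fold in FPKM + 1 as are all folds given here. No other member passed, so 1 of 9 was called against 22.8% of all genes (9.47% higher and 13.3% lower). The values of HFD and SZ-A mice overlapped in all 9, while 6.08% of all genes showed no overlap. The median log2 fold change over the members was 0.50, beside 0.03 over all 14695 genes. Between SZ-A and NC, limma called 0 of 9 members, with 1 at an unadjusted p under 0.05, against 4.61% of all genes. Other tests of that comparison called 0 members (voom on the recovered reads, exact permutation) or 1 (array quality weights). The comparisons share groups and are not independent.

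**Figure D2:**
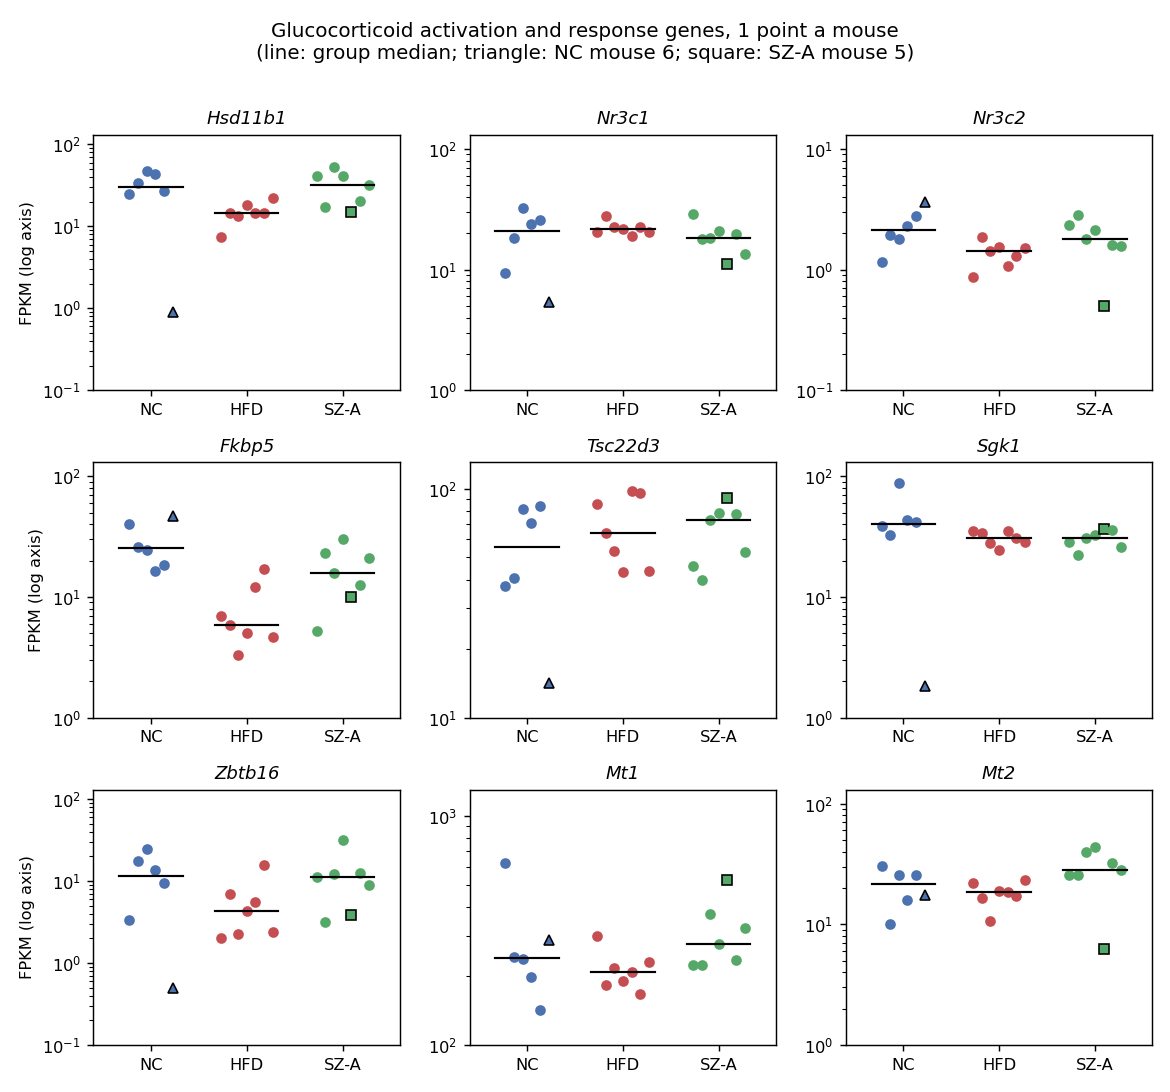
FPKM on a log axis of each of the 9 members in each mouse, with 1 point a mouse, a line at the group median, a triangle for NC mouse 6 and a square for SZ-A mouse 5. Fkbp5 is lowest in HFD with a median of 5.80 FPKM, Hsd11b1 has medians of 30.2, 14.4 and 31.7 in NC, HFD and SZ-A, and NC mouse 6 lies far below its group in Hsd11b1, Sgk1 and Zbtb16.

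Hsd11b1 (ENSMUSG00000016194, GRCm38 chr1:193221634-193264075, minus strand) ran from 0.904 over a median of 30.2 to 47.9 FPKM in NC, from 7.42 over 14.4 to 22.3 in HFD and from 14.9 over 31.7 to 53.6 in SZ-A. The lowest NC value belonged to NC mouse 6, and the other 5 NC mice, at 24.8 to 47.9, lay above every HFD mouse. The means were 29.6 ± 16.8 (SD, n = 6), 14.9 ± 4.56 (SD, n = 7) and 31.3 ± 14.5 FPKM (SD, n = 7). With all mice, the HFD to NC difference of -0.50 ± 0.62 (log2, SE) did not pass (adjusted p = 0.55, limma). Without NC mouse 6 it was -1.20 ± 0.23, an adjusted p of 0.0011 by limma, so the call rests on that library. Hsd11b1 was then the only member whose groups did not overlap, which held for 25.2% of all genes.

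Between SZ-A and HFD, Hsd11b1 differed by 0.94 ± 0.28 on the log2 scale (adjusted p = 0.027, limma), a fold of 1.92 with a 95% interval of 1.26 to 2.92. Of the 7 SZ-A mice, 4 lay above the highest HFD mouse, and SZ-A mice 2, 5 and 6 lay at 17.0, 14.9 and 20.5 FPKM within the HFD range. The call was lost, at an adjusted p of 0.05 to 0.059, when SZ-A mouse 1, 3 or 4 or HFD mouse 1, 3 or 5 was left out, and it was 0.053 by the exact permutation test adjusted over all genes. Where all 3 groups entered the fit, the adjusted p was 0.24. Without the mice above 100 FPKM of Krt18, the difference was 1.05 (adjusted p = 0.024, limma). The adipocyte gene Adipoq ran from 222 to 1158 FPKM in HFD and from 838 to 2668 in SZ-A, with SZ-A mice 1, 3 and 4 the highest in both genes. The 15 adipocyte markers had a median log2 difference of 0.81 in this comparison, and their part in that of Hsd11b1 was not tested. The difference from NC to SZ-A was 0.44 with an interval of -0.94 to 1.83, which leaves its direction undetermined.

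H6pd, which supplies the NADPH for this enzyme, was expressed at 80.0 ± 33.5 FPKM in NC (SD, n = 6), 83.2 ± 21 in HFD (SD, n = 7) and 118 ± 48.6 in SZ-A (SD, n = 7). Its differences were 0.14 for HFD against NC and 0.43 for SZ-A against HFD on the log2 scale, with adjusted p of 0.73 and 0.24 (limma). The first was -0.11 without NC mouse 6, which held 29.8 FPKM against 55.2 to 122 in the other NC mice, and the second was 0.58 (adjusted p = 0.085) without SZ-A mouse 5. Hsd11b2, the enzyme of the opposite reaction, was near the lower end of the table at 0.393, 0.629 and 0.371 FPKM in the NC, HFD and SZ-A means. Its log2 difference between HFD and NC was 0.21 (adjusted p = 0.15, limma). Hsd11b1 thus exceeded Hsd11b2 per length in every group mean.

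The list of glucocorticoid handling genes held 10 names, of which 5 were in the table. Between HFD and NC, 1 of the 5 was called (20%, beside 41.1% of all genes). Srd5a1, a steroid 5α-reductase that inactivates corticosterone among other steroids, was the 1 called, lower in HFD by 1.67 on the log2 scale (adjusted p = 0.041, limma) with an adjusted p of 0.075 without NC mouse 6 and 0.091 without NC mouse 1. Srd5a1 was highest in the 5 mice above 100 FPKM of Krt18, at 21.2, 7.85 and 16.8 FPKM in NC mice 1, 2 and 6 and at 6.48 and 8.95 in SZ-A mice 2 and 7. In every other mouse it was at or below 2.84 FPKM. Without those 5 mice the difference between HFD and NC was -0.17 (adjusted p = 0.64, limma). None of the 5 was called between SZ-A and HFD by limma, beside 22.8% of all genes, and 0 had an unadjusted p under 0.05.

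Nr3c1 (ENSMUSG00000024431), the glucocorticoid receptor, ran from 5.4 over 20.9 to 32.7 FPKM in NC, from 19.1 over 21.7 to 27.8 in HFD and from 11.1 over 18.3 to 28.8 in SZ-A. The HFD values were the most alike, with a coefficient of variation of 12.6% against 54.0% in NC and 30.5% in SZ-A. The lowest values of the other groups belonged to NC mice 6 and 1 (5.4 and 9.28) and to SZ-A mouse 5. The log2 difference was 0.40 between HFD and NC (95% interval -0.30 to 1.10) and -0.28 between SZ-A and HFD (-0.63 to 0.07). Neither passed limma's test (adjusted p = 0.35 and 0.23). The first was 0.11 (adjusted p = 0.73) without NC mouse 6 and 0.25 (0.59) without NC mouse 1, and the second was -0.17 (0.37) without SZ-A mouse 5.

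Nr3c2 (ENSMUSG00000031618, GRCm38 chr8:76899442-77245012, plus strand), the mineralocorticoid receptor, was the least abundant member. It ran from 1.15 over 2.11 to 3.65 FPKM in NC, from 0.872 over 1.44 to 1.87 in HFD and from 0.499 over 1.81 to 2.84 in SZ-A. The NC and HFD ranges overlapped, with NC mice 1 and 3 (1.15 and 1.80) inside the HFD range and NC mouse 6 the highest. The fall of 0.43 in HFD (SE 0.16, adjusted p = 0.046, limma) was close to the threshold. It is on log2(FPKM + 1), which understates changes at levels this low, and the alternatives gave -0.77 to -0.32. The adjusted p ranged from 0.01 to 0.09 over 26 alternatives, 10 of which called it. Of the 13 fits that each left out 1 mouse, 3 called it, and the adjusted p was 0.082 without NC mouse 6. Between SZ-A and HFD the log2 difference was 0.21 (adjusted p = 0.38, limma), and it was 0.36 (adjusted p = 0.036) without SZ-A mouse 5, the lowest of its group at 0.499 FPKM.

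The ratio of Nr3c1 to Nr3c2 in FPKM had medians of 9.37, 15.7 and 10.1 for NC, HFD and SZ-A mice. The ranges overlapped, at 1.48 (NC mouse 6) to 18.2 for NC, 13.6 to 23.4 for HFD and 6.34 to 22.2 for SZ-A. Nr3c1 exceeded Nr3c2 in every mouse.

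Fkbp5 (ENSMUSG00000024222, GRCm38 chr17:28399094-28517527, minus strand) gave the largest difference of any member between HFD and NC. It was 39.9, 25.9, 24.6, 16.3, 18.3 and 46.9 FPKM in NC mice 1 to 6, 6.88, 5.80, 3.29, 5.0, 12.0, 16.9 and 4.69 in HFD mice 1 to 7, and 5.23, 23.1, 15.8, 30.2, 9.90, 12.5 and 21.1 in SZ-A mice 1 to 7. HFD mouse 6, the highest of its group, lay just above the lowest NC mouse, and the other 6 HFD mice lay below every NC mouse. The SZ-A mice spread over both ranges. The means were 28.6 ± 12.2 (SD, n = 6), 7.80 ± 4.90 (SD, n = 7) and 16.8 ± 8.55 FPKM (SD, n = 7).

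Fkbp5 fell by 1.82 on the log2 scale in HFD (SE 0.34, adjusted p = 0.00085, limma), which is 3.53-fold lower in FPKM + 1. The call held in all 26 alternatives run for it, with an adjusted p from 0.00024 to 0.012 and log2 differences from -2.11 to -1.38. The smallest of these differences was obtained without the mice above 100 FPKM of Krt18. The highest Fkbp5 values of the NC group belonged to NC mice 6 and 1, the mice with the most Krt18. Between SZ-A and HFD, Fkbp5 differed by 1.02 (95% interval 0.24 to 1.79), which did not pass (adjusted p = 0.056, limma). Of 27 alternatives, 5 called it, among them voom on the recovered reads (0.046). The fits without SZ-A mouse 5 (0.042), SZ-A mouse 1 (0.02) or HFD mouse 6 (0.023) also did. The smallest difference of the 27 was 0.80 (adjusted p = 0.15, limma), without the mice above 100 FPKM of Krt18. Of those mice, SZ-A mice 2 and 7 held 23.1 and 21.1 FPKM, below SZ-A mouse 4 (30.2) and above the rest of their group. Against NC, SZ-A mice were at -0.80 (adjusted p = 0.25, limma).

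**Figure D3:**
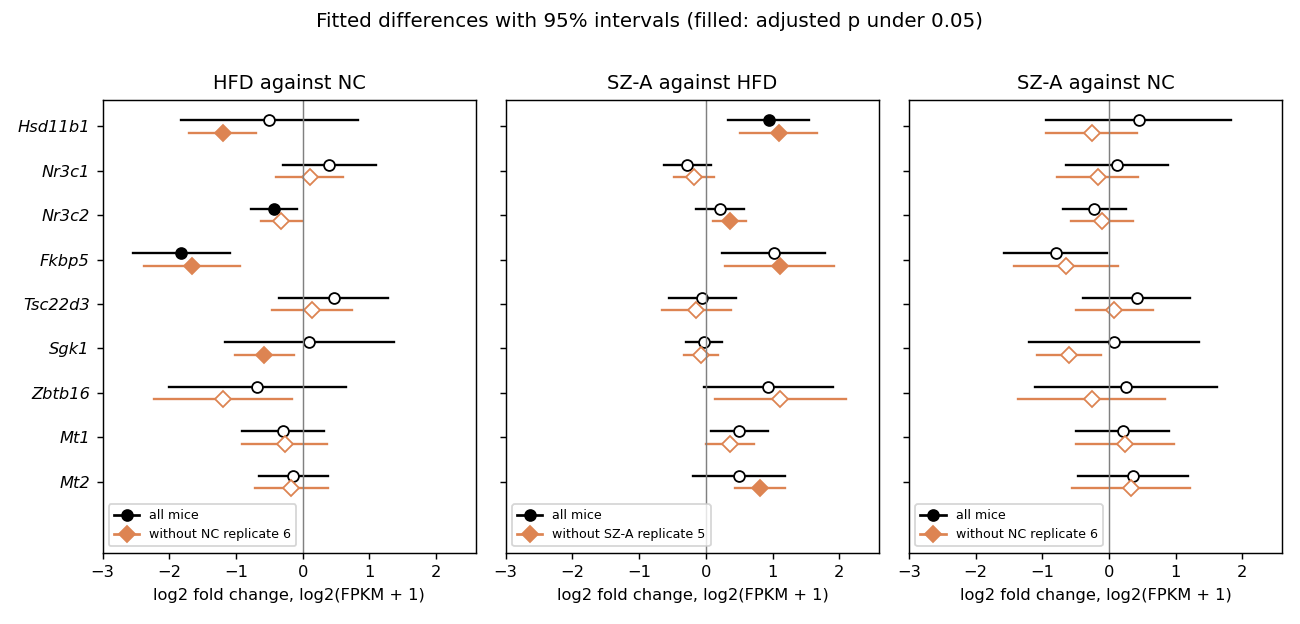
Log2 fold changes of the 9 members in the 3 comparisons on log2(FPKM + 1), with 95% intervals, for all mice (circles) and without NC mouse 6 or SZ-A mouse 5 (diamonds), filled where the adjusted p by limma is under 0.05. Fkbp5 is filled in HFD against NC with and without NC mouse 6 (-1.82 and -1.66), whereas Hsd11b1 and Sgk1 are filled there without NC mouse 6 alone, and Hsd11b1 lies at 0.94 in SZ-A against HFD.

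Tsc22d3 (ENSMUSG00000031431, GRCm38 chrX:140539528-140600659, minus strand) encodes GILZ, a leucine zipper protein through which glucocorticoids restrain inflammation. It ran from 14.2 over 55.8 to 83.8 FPKM in NC, from 43.0 over 63.6 to 97.4 in HFD and from 40.02 over 72.9 to 91.1 in SZ-A. The ranges of the groups overlapped widely, and NC mouse 6 was again the lowest. The log2 difference was 0.47 between HFD and NC (95% interval -0.35 to 1.28, adjusted p = 0.35, limma) and -0.05 between SZ-A and HFD (-0.56 to 0.45, adjusted p = 0.89). Without NC mouse 6 the first was 0.13 (adjusted p = 0.72). Tsc22d3 was called in none of the alternatives of any comparison.

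Sgk1 (ENSMUSG00000019970, GRCm38 chr10:21882184-21999903, plus strand), a kinase induced by glucocorticoids and mineralocorticoids, was within a narrow range on HFD with or without treatment. It ran from 24.3 over 30.9 to 35.0 FPKM in HFD and from 22.3 over 30.5 to 36.6 in SZ-A, and the log2 difference was -0.03 with a 95% interval of -0.29 to 0.24. The NC mice were far more spread, from 1.83 in NC mouse 6 over a median of 39.9 to 88.1 FPKM in NC mouse 3. With all mice HFD and NC differed by 0.10 (adjusted p = 0.91, limma), whereas without NC mouse 6 Sgk1 was lower in HFD by 0.57 (adjusted p = 0.036). The 5 remaining NC mice, at 32.9 to 88.1 FPKM, still overlapped the HFD range.

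Zbtb16 (ENSMUSG00000066687, GRCm38 chr9:48654297-48836222, minus strand) encodes PLZF, a zinc finger repressor that is strongly induced by glucocorticoids in many cells. It was the most variable member, with coefficients of variation of 78.5%, 87.0% and 79.6% over NC, HFD and SZ-A mice. The values ran from 0.494 over 11.5 to 25.0 FPKM in NC, from 2.03 over 4.33 to 15.9 in HFD and from 3.21 over 11.2 to 31.7 in SZ-A. HFD mouse 6 was highest of its group in Zbtb16 (15.9) as in Fkbp5 (16.9), and SZ-A mouse 4 was highest in both (31.7 and 30.2). The log2 differences of -0.68 in HFD against NC (adjusted p = 0.40) and 0.93 in SZ-A against HFD (0.15) did not pass limma's test. Without NC mouse 6 the first was -1.20 (adjusted p = 0.057), and without the mice above 100 FPKM of Krt18 it was -1.52 (0.027).

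The count of members called between HFD and NC was 3 of 9 without NC mouse 6 (Hsd11b1, Fkbp5 and Sgk1, all lower), beside 45.2% of all genes, or 22.6% counting the lower ones. Without NC mouse 1 it was 2 of 9 (Nr3c2 and Fkbp5, both lower), beside 37.3%, or 17.8% lower. Without the mice above 100 FPKM of Krt18 it was 5 of 9 (Hsd11b1, Nr3c2, Fkbp5, Sgk1 and Zbtb16, all lower), beside 42.7%, or 21.4% lower. Between SZ-A and HFD, the count without SZ-A mouse 5 was 4 of 9 (Hsd11b1, Nr3c2, Fkbp5 and Mt2, all higher), beside 29.2%, or 12.9% higher. There, without the mice above 100 FPKM of Krt18, it was 1 of 9 (Hsd11b1, higher), beside 25.9% of all genes in either direction. Leaving out each mouse in turn was planned, whereas the limit on Krt18 was set after the values had been seen.

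Mt1 (ENSMUSG00000031765, GRCm38 chr8:94179082-94180327, plus strand) and Mt2 (ENSMUSG00000031762, chr8:94172664-94173568, plus strand) encode small cysteine-rich proteins that bind zinc and copper, and are neighbours on the chromosome. They are paralogs, and how reads that match both were assigned is not given in the sources used here, so their levels are uncertain. Merged over annotated transcripts, the exons of Mt1 cover its whole gene of 1246 bases, and those of Mt2 588 bases. FPKM depends on these lengths, so the level of Mt1 beside Mt2 or other genes is approximate. Mt1 ran from 142 over 240.0 to 622 FPKM in NC, from 167 over 208 to 298 in HFD and from 224 over 275 to 523 in SZ-A. NC mouse 1 and SZ-A mouse 5 were the highest of their groups. The log2 difference was -0.29 between HFD and NC (adjusted p = 0.43, limma) and 0.50 between SZ-A and HFD (SE 0.20, adjusted p = 0.085). The first was -0.041 (adjusted p = 0.90) without NC mouse 1, and the second was 0.37 (0.11) without SZ-A mouse 5.

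Mt2 ran from 9.999 over 21.5 to 30.5 FPKM in NC, from 10.7 over 18.3 to 23.3 in HFD and from 6.22 over 27.9 to 43.9 in SZ-A. The 6 SZ-A mice other than mouse 5, at 25.4 to 43.9 FPKM, lay above every HFD mouse. Between SZ-A and HFD the log2 difference was 0.50 ± 0.32 (SE) with all mice (adjusted p = 0.27, limma) and 0.81 ± 0.17 without SZ-A mouse 5 (adjusted p = 0.0042). Mt2 was then the only member whose SZ-A and HFD values did not overlap, which held for 7.94% of all genes. Between HFD and NC it was -0.14 (adjusted p = 0.66, limma).

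SZ-A mouse 5 had at once the lowest Mt2 (6.22 FPKM, 51 reads) and the highest Mt1 of its group (523 FPKM). The ratio of Mt1 to Mt2 was 84.1 in it, against 24.2 or less in every other mouse, and the group medians were 14.4 (NC), 10.99 (HFD) and 8.80 (SZ-A). Within groups, the relation of Mt1 with Mt2 did not pass the test in any of the 3 groups (Pearson r = 0.293, 0.349 and -0.629 in NC, HFD and SZ-A, and Spearman rho = 0.143, 0.536 and 0.0714). The exact permutation p of r were 0.578, 0.410 and 0.134, and those of rho 0.803, 0.236 and 0.906, unadjusted. Without the 2 mice farthest from the median of Mt1, r was 0.057, 0.088 and 0.327.

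**Figure D4:**
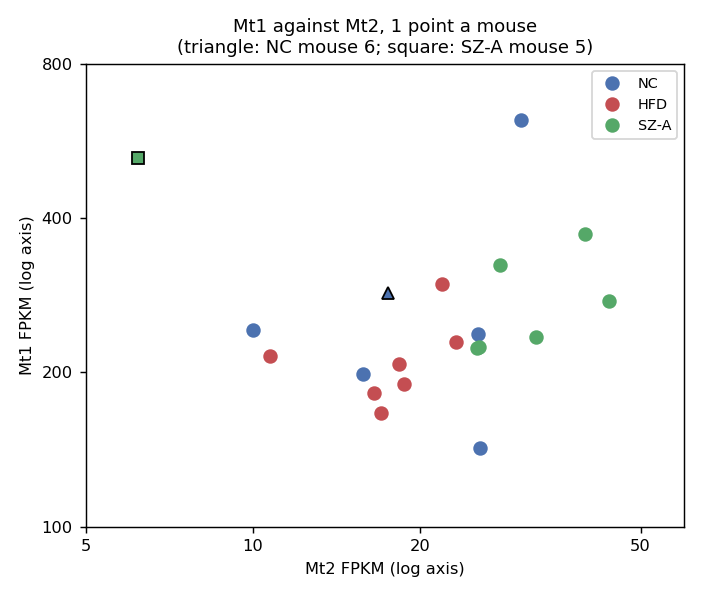
Mt1 against Mt2 in FPKM on log axes, with 1 point a mouse, a triangle for NC mouse 6 and a square for SZ-A mouse 5. SZ-A mouse 5 lies at 6.22 for Mt2 and 523 for Mt1, away from the other SZ-A mice at 25.4 to 43.9 for Mt2.

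The metallothionein and zinc handling list held 24 names, of which 18 were tested. Between HFD and NC, 5 were higher and 4 lower (50% called, beside 41.1% of all genes), and between SZ-A and HFD, 1 was higher and 5 lower (33.3%, beside 22.8%). Slc39a8, a zinc and manganese importer, was lower in HFD by 2.57 (adjusted p = 0.00027, limma), at 1.92 ± 0.622 FPKM (SD, n = 7) against 21.1 ± 16.6 in NC (SD, n = 6). In SZ-A, mice 2 and 7, those above 100 FPKM of Krt18, held 17.3 and 18.9 FPKM and the others 3.41 or less. In NC the mice above that limit held 19.3, 37.5 and 8.23 FPKM (mice 1, 2 and 6) and the others 5.05, 11.3 and 45.2. Without the mice above the limit, Slc39a8 was at -2.39 in HFD against NC (adjusted p = 0.0016, limma), and between SZ-A and HFD it moved from 0.86 (0.18) to 0.11 (0.66). Slc39a1, an importer of the cell surface, was 43.3 ± 4.29 FPKM in NC (SD, n = 6), 90.0 ± 8.34 in HFD (SD, n = 7) and 59.8 ± 7.89 in SZ-A (SD, n = 7), and its groups overlapped in neither comparison. The log2 differences were 1.04 and -0.59 (adjusted p = 8e-06 and 0.0022, limma). Slc39a10 and Slc39a11, of the same importer family, were likewise higher in HFD (1.18 and 1.36) and lower in SZ-A than in HFD (-0.74 and -0.85), all past the test. Mtf1, the zinc-sensing factor that binds the metal response cores, was higher in HFD by 0.35 (adjusted p = 0.012) and at -0.16 between SZ-A and HFD (0.26). Mt1 and Mt2 passed in neither comparison with all mice.

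Among 21 receptor chaperones and co-regulators, 3 were higher and 3 lower in HFD than in NC (28.6%, beside 41.1% of all genes), and 1 was higher and 1 lower in SZ-A than in HFD (9.52%, beside 22.8%). Without SZ-A mouse 5 the second counts were 2 and 2 (19%, beside 29.2%), and without the mice above 100 FPKM of Krt18 they were 2 and 3 (23.8%, beside 25.9%). Fkbp4 encodes FKBP52, which acts opposite to FKBP51 on the receptor. It was lower in HFD by 1.51 (adjusted p = 0.0099, limma), with 27.2 ± 4.90 FPKM (SD, n = 7) against 101 ± 70.5 in NC (SD, n = 6). The highest Fkbp4 values were again in mice with high Krt18, at 188, 125 and 173 FPKM in NC mice 1, 2 and 6 and 119.6 in SZ-A mouse 7. The remaining NC mice, at 26.5 to 52.6 FPKM, overlapped the HFD range of 21.3 to 34.9. Without the mice above 100 FPKM of Krt18, Fkbp4 was at -0.50 (adjusted p = 0.069, limma).

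Bag1, a co-chaperone of the Hsp70 family that also binds the receptor, was 215 ± 35.4 FPKM in NC (SD, n = 6), 112.5 ± 9.04 in HFD (SD, n = 7) and 166 ± 36.3 in SZ-A (SD, n = 7). It was lower in HFD by 0.92 (adjusted p = 0.00014, limma), with no overlap, and SZ-A mice exceeded HFD mice by 0.53 (0.014). The coactivator Ncoa3 showed the reverse order, higher in HFD by 0.86 (adjusted p = 0.00014) and lower in SZ-A than in HFD by 0.63 (0.002). The co-repressor Nrip1 was lower in HFD by 0.83 (adjusted p = 0.00096) and at 0.45 in SZ-A against HFD (0.13), or 0.57 (0.037) without SZ-A mouse 5.

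Of 38 other known glucocorticoid targets listed, 35 were tested, and the shares called were near those of all genes. In HFD 9 were higher and 4 lower than in NC (37.1%, beside 41.1% of all genes), while 5 were higher and 3 lower in SZ-A than in HFD (22.9%, beside 22.8%). Without NC mouse 6 the first counts were 8 higher and 11 lower (54.3%, beside 45.2% of all genes), and the median log2 fold change of the list moved from 0.30 to -0.07. Without the mice above 100 FPKM of Krt18 they were 3 higher and 13 lower (45.7%, beside 42.7%), with a median of -0.36. The second counts were 6 higher and 6 lower without SZ-A mouse 5 (34.3%, beside 29.2%), and 9 and 3 without the Krt18 mice (34.3%, beside 25.9%). Cd163 and Mertk of this list are also on the macrophage list and Pnpla2 on the adipocyte list.

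Klf15, a transcription factor of amino acid and lipid metabolism, was lowest in HFD, as Fkbp5 was. It ran from 14.0 over 29.5 to 40.6 FPKM in NC, from 2.74 over 4.46 to 15.4 in HFD and from 13.8 over 14.7 to 23.0 in SZ-A. HFD mouse 6 was the 1 HFD mouse within the range of the other groups. The log2 difference was -2.17 between HFD and NC (adjusted p = 0.00017, limma) and 1.45 between SZ-A and HFD (0.0024). Pck1, the key enzyme of glyceroneogenesis, was higher in SZ-A than in HFD by 1.62 (adjusted p = 0.018). Between HFD and NC, Pck1 was at -1.66 (adjusted p = 0.11) with all mice and -2.47 (0.00052) without NC mouse 6, which held 30.9 FPKM against 409 to 1455 in the other NC mice.

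Arl4d, a small GTPase of the ARF family, was lower in HFD by 2.24 with no overlap (adjusted p = 0.00015, limma), and was at 0.57 in SZ-A against HFD (0.096). Anxa1, an anti-inflammatory protein abundant in myeloid cells and fibroblasts, went the other way. It was 82.1 ± 23.4 FPKM in NC (SD, n = 6), 653 ± 139 in HFD (SD, n = 7) and 354 ± 75.3 in SZ-A (SD, n = 7), higher in HFD by 3.0 (adjusted p = 2.5e-07, limma) and lower in SZ-A than in HFD by 0.88 (0.0039). The groups of Anxa1 overlapped in neither comparison. The clock gene Per1 and Klf9, both early targets of the receptor, were at -0.25 and 0.35 between HFD and NC (adjusted p = 0.46 and 0.48) and at 0.22 and -0.42 between SZ-A and HFD (0.46 and 0.48). Klf9 was 10.2 FPKM in NC mouse 6 and 4.53 in SZ-A mouse 5, the lowest of their groups. Without NC mouse 6 the HFD to NC differences were -0.43 for Per1 and 0.020 for Klf9, and without SZ-A mouse 5 those between SZ-A and HFD were 0.089 and 0.0086. Without the mice above 100 FPKM of Krt18, Klf9 was at -0.36 between HFD and NC (adjusted p = 0.25, limma).

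**Figure D5:**
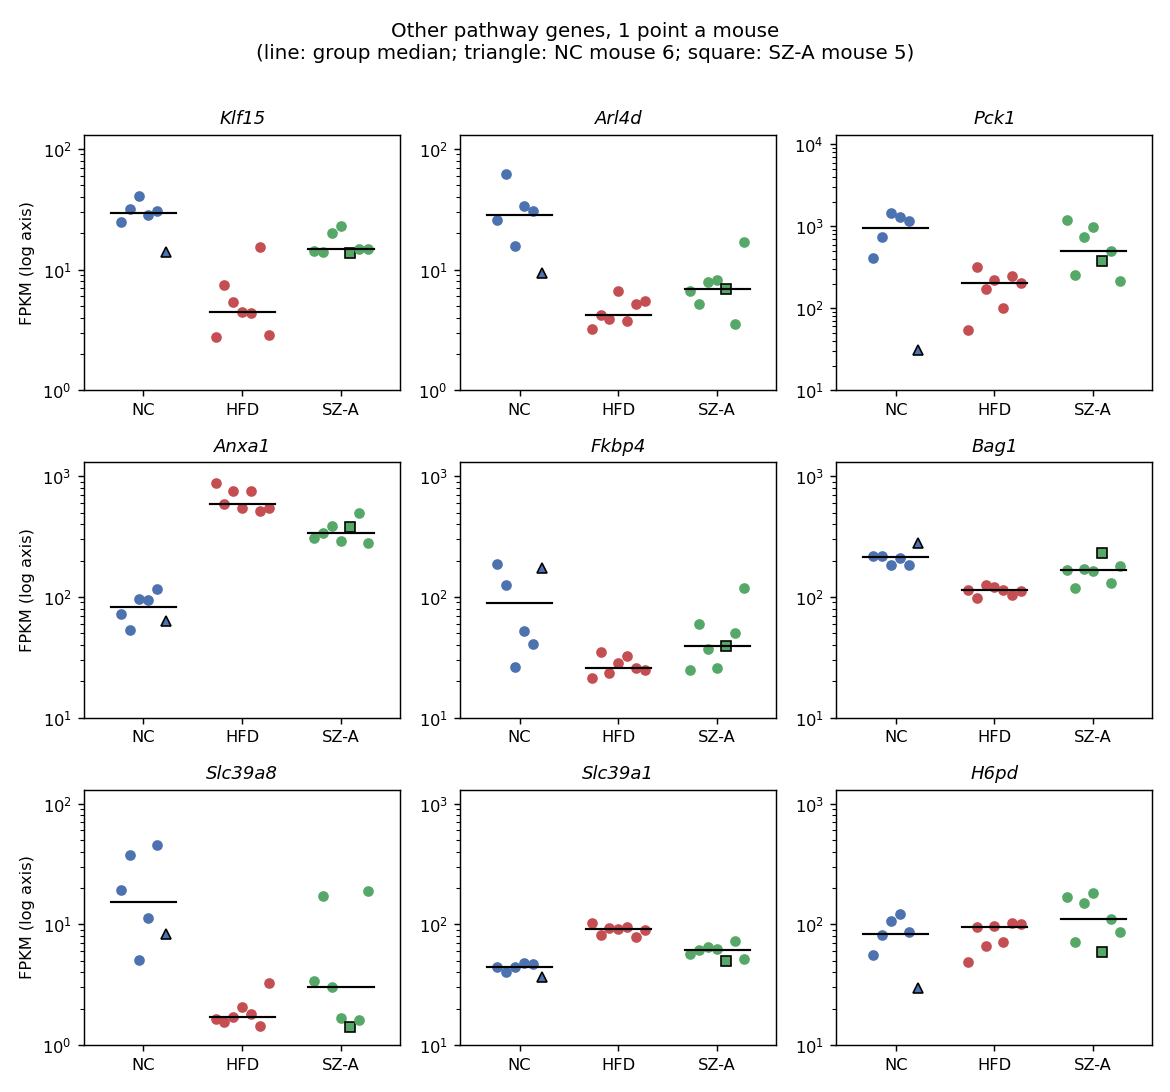
FPKM on a log axis of Klf15, Arl4d, Pck1, Anxa1, Fkbp4, Bag1, Slc39a8, Slc39a1 and H6pd in each mouse, with 1 point a mouse, a line at the group median, a triangle for NC mouse 6 and a square for SZ-A mouse 5. Klf15 and Bag1 lie lowest in HFD, Anxa1 and Slc39a1 highest in HFD, and Fkbp4 is highest in NC mice 1, 2 and 6 and SZ-A mouse 7.

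None of 15 relations between pairs of members within groups passed adjustment, with the smallest adjusted p at 0.129 for Pearson's r and 0.438 for Spearman's rho (exact permutation). The pairs were Mt1 with Mt2, and Fkbp5 with Tsc22d3, Zbtb16, Hsd11b1 and Nr3c1. For Fkbp5 with Tsc22d3, r in NC was -0.866, whereas HFD mice gave 0.830 and SZ-A mice 0.0339 (exact permutation p = 0.0125, 0.0179 and 0.941, unadjusted). Spearman's rho was -0.829, 0.821 and -0.0714 (exact permutation p = 0.0583, 0.0341 and 0.906, unadjusted). Without the 2 mice farthest from the median of Fkbp5, r was -0.525 over 4 mice in NC, where NC mice 1 and 6 were left out, 0.622 over 5 in HFD and -0.952 over 5 in SZ-A. The difference of these relations between groups was not tested.

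After subtraction of group means over the 20 mice, the members differed in how close their nearest genes were, among 12450 genes whose mean reached 1 FPKM. These correlations are descriptions, and NC mouse 6 carries many of them. Fkbp5 had the weakest neighbours, Usp2 (r = 0.663), Ppard (0.661) and Ctu1 (0.660). The nearest to Hsd11b1 were Twist1 (0.972), Rarres2 (0.97) and Cavin1 (0.97), which were at 0.879, 0.896 and 0.868 without NC mouse 6. Those of Sgk1, Gng11 (0.959), Rbms1 (0.957) and Msn (0.956), fell to 0.668, 0.728 and 0.765 without it. Nr3c1 was nearest to Kif1b (0.973), Il6st (0.967) and Lnpep (0.967), and Nr3c2 to Uevld (0.913), Ptprg (0.911) and Fyco1 (0.909). Tsc22d3 was nearest to Slc10a6 (0.927), Ms4a6b (0.909) and Ccdc71l (0.904), and Zbtb16 to Ccdc85a (0.932), Plxna2 (0.924) and Mycl (0.923). Mt1 was nearest to Eftud2 (0.927), Smarcd2 (0.918) and Sem1 (0.903), and Mt2 to Endog (0.828), Fam117b (0.817) and Ints14 (0.813).

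Between members, Tsc22d3 and Sgk1 were the closest pair on the same measure without NC mouse 6 (r = 0.691 over 19 mice), followed by Nr3c1 and Nr3c2 (0.686). The most opposed pairs were Mt1 with Nr3c2 (-0.802) and Mt1 with Nr3c1 (-0.797). The merged exons of Mt1 cover 1246 bases, its whole gene, and those of Nr3c1 cover 7684. Genes under 1500 bases lay above genes over 5000 bases by 0.66 in NC mouse 1 and 0.44 in SZ-A mouse 5. These values are on the log2 scale, relative to the median of all mice. Both mice had the highest Mt1 and among the lowest Nr3c1 and Nr3c2 of their groups. NC mouse 6, left out of these relations, was at 0.43, with the lowest Nr3c1 but the highest Nr3c2 of its group. SZ-A mouse 7 was at 0.33. The part of this length difference in the relation was not tested.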

How the data were processed

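RNA-seq of eWAT from 20 mice (the labels give 6 NC, 7 HFD and 7 SZ-A mice, whereas the study's text gives equal groups) was analysed from FPKM, which the authors deposited already scaled to gene length and library size. The authors had sequenced poly(A) RNA as paired-end reads, used HISAT2 on GRCm38, and tested groups with DESeq2. The submitters' processing notes name featureCounts 1.5.0-p3. The annotation release and the filter behind the 14776 genes are not given in the sources used here. All 14776 were above 0 FPKM in every mouse, so a listed gene absent from them may still have been expressed in some mice. Members and gene lists were chosen with earlier results of these data known.

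Groups were compared 2 at a time with limma 3.58.1 in R 4.3.3 (lmFit, and eBayes with a trend) on log2(FPKM + 1), which understates changes of low genes. A gene needed a mean of 0.1 FPKM, and p was adjusted over all genes tested by Benjamini-Hochberg with a threshold of 0.05. FPKM is no count, so no count test was run as the main one. Reads were recovered from FPKM and merged exon lengths (GENCODE M21). Of values under 1000 reads, 95.9% to 96.3% came out whole within 0.01, and they served voom alone. The fit was tested on simulated data. Alternatives were other pseudocounts, filters and scalings, a fit of all 3 groups, voom, exact permutation, robust variance, array quality weights, a replicate block, and mice left out. For the gene lists, the mice to leave out were chosen after the values were seen. Named genes were all members, H6pd, Hsd11b2, Mtf1, Per1 and Klf9, up to 4 called genes of each pathway list (the largest log2 fold changes in HFD against NC) and the 3 genes most correlated with each member. The markers Adipoq, Adgre1, Krt18 and Adgrg2 were named after their values were seen. Relations within groups were tested by exact two-sided permutation. No promoter is shown for Nr3c1 or Zbtb16.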

Additional observations from a re-analysis of the deposited data

Results flagged for a closer look

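The 9 members in 3 groups gave 27 sets of mice, and in 4 of them 1 mouse lay farther from the rest than Dixon's 95% limit allows. Chance alone would flag about 1 set in 20. All 4 values came from NC mouse 6 or SZ-A mouse 5, and all 4 were the lowest of their group. Hsd11b1 was 0.904 FPKM in NC mouse 6, against 24.8 to 47.9 in the other NC mice. Sgk1 was 1.83 FPKM in the same mouse, against 32.9 to 88.1. Nr3c2 was 0.499 FPKM in SZ-A mouse 5, against 1.56 to 2.84 in the other SZ-A mice. Mt2 was 6.22 FPKM in SZ-A mouse 5, against 25.4 to 43.9.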

How the results depend on the processing

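Of 720 values recomputed for the 27 member differences, 635 kept their direction and their side of the threshold, and 42 changed sign. With the sign kept, 24 lost and 19 gained a call. Sgk1 in HFD against NC both changed sign and gained a call without NC mouse 6 (adjusted p = 0.036, limma). The same held without the mice above 100 FPKM of Krt18 (0.011). Every difference whose sign changed was uncalled with all mice. The fall of Fkbp5 in HFD was called under every alternative run. The causes of the other changes were not tested, and the number of mice, with 3 libraries that stand apart, limits every comparison.

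Between HFD and NC, the number of members called changed from 2 to 1 with the limit of 1.5 on the log2 fold change, pseudocount 0.1, pseudocount 0.01, quantile normalization, all 3 groups in the fit and the exact permutation test. The settings that gave 1 called 5914 to 6286 of all 14706 genes, or 1172 with the limit of 1.5. The number was 4 with array quality weights, which called 7286 of all genes. Without the mice above 100 FPKM of Krt18 it was 5, beside 42.7% of all genes. When 1 mouse was left out it was 1 to 3, beside 5237 to 6645 genes over all. Between SZ-A and HFD, the number changed from 1 to 0 with the limit of 1.5, all 3 groups in the fit and the exact permutation test. It was 2 with quantile normalization, 3 with voom and 6 with array quality weights. When 1 mouse was left out it was 0 to 4, beside 2352 to 4296 genes over all. An unadjusted p under 0.05 was found in SZ-A against HFD for 1 member with all 3 groups in the fit and for 3 by exact permutation. Between SZ-A and NC it changed from 0 to 1 with array quality weights (Mt2).

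Over all genes, the limit of 1.5 left 1172 of 6047 calls in HFD against NC, 127 of 3349 in SZ-A against HFD and 263 of 678 in SZ-A against NC. All 3 groups in the fit gave 2089 and 1527 in the last 2 comparisons, and array quality weights 6403 and 2639. The genes tested there were 14695 and 14718. SZ-A against NC gave 180.0 without the mice above 100 FPKM of Krt18 and 423 to 860 when 1 mouse was left out (423, 425 and 441 without NC mouse 2, SZ-A mouse 6 and NC mouse 1).

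Signs changed in HFD against NC for Sgk1 (-0.020 with quantile normalization, -0.40 with array quality weights, -0.81 without the mice above 100 FPKM of Krt18, -0.57 to 0.42 leaving out 1 mouse), and without those Krt18 mice for Nr3c1 (-0.29), Tsc22d3 (-0.26) and Mt1 (0.15). Mt2 was at 0.15 with array quality weights. In SZ-A against HFD, Tsc22d3 was at 0.16 with array quality weights, 0.13 without the Krt18 mice and -0.15 to 0.054 leaving out 1 mouse. Sgk1 was at 0.0020 with quantile normalization, 0.025 with voom, 0.070 with array quality weights, 0.10 without the Krt18 mice and -0.078 to 0.042 leaving out 1 mouse.

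In SZ-A against NC, leaving out the Krt18 mice gave Hsd11b1 -0.31, Nr3c1 -0.50, Tsc22d3 -0.13, Sgk1 -0.71 and Zbtb16 -0.31. Leaving out NC mouse 6 and SZ-A mouse 5 gave Hsd11b1 -0.11, Nr3c1 -0.063, Nr3c2 0.034, Tsc22d3 -0.0057, Sgk1 -0.65 and Zbtb16 -0.078. Sgk1 was at -0.028 with quantile normalization and -0.33 with array quality weights. Leaving out 1 mouse gave Hsd11b1 -0.26 to 0.68, Nr3c1 -0.17 to 0.31, Sgk1 -0.60 to 0.40 and Zbtb16 -0.26 to 0.56.

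With a replicate block, 1 member was called between HFD and NC (Fkbp5), 1 between SZ-A and HFD and 0 between SZ-A and NC, with 4423, 2619 and 173 genes over all. Same-numbered mice share only a number: their deviations from the group means correlated from -0.41 to 0.58, and 1 of 6, 2 of 7 and 1 of 6 mice correlated best with their own number.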
